A study of Mus musculus with 62 samples.

Results

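The glucocorticoid receptor, the enzyme that makes its ligand inside cells and 8 genes that the receptor switches on were followed in diaphragm muscle of mice carrying a melanoma. The 10 genes were Nr3c1, Hsd11b1, Fkbp5, Tsc22d3, Ddit4, Klf15, Klf9, Sgk1, Zbtb16 and Cebpd. They were taken by name from the 47643 genes listed in the expression file, all 10 were found, and all 10 passed the filter on low values that left 13578 genes to be tested.

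The measurements are RNA-seq of diaphragms from 62 female mice, 1 library per mouse. The age given is 2 months, which the design text applies to the time of injection, so mice sampled in later weeks were older. Cachectic mice received melanoma cells that cause body wasting, non-cachectic mice received another melanoma that does not, and control mice had a mock injection. Sampling was at 2, 4, 6 and 8 weeks, with 7 mice in the cachectic group at the last week and 5 in each of the other conditions. The labels give the strain as C57BL6/J, whereas the design text and the methods give NCI Ath/nude, an immunodeficient mouse that lacks a thymus. Each tumor group carried 1 patient-derived xenograft, so cachexia and the identity of the tumor cannot be told apart. Expression is in TPM, the share of a library's transcripts scaled to a fixed sum, which corrects for gene length, so levels of different genes can be set side by side. The depth in reads is unknown.

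Glucocorticoids are steroid hormones released by the adrenal gland in fasting, stress and systemic inflammation. They bind the receptor encoded by Nr3c1, which waits in the cytoplasm with heat shock proteins, moves to the nucleus and binds DNA at glucocorticoid response elements. In skeletal muscle the hormone is known for slowing protein synthesis and for favoring the breakdown of protein and amino acids, and several of its target genes in muscle belong to these programs.

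Of the 62 libraries, 4 stood apart. They listed 15069 to 16389 genes above 0, against 17909 to 19057 in the other 58, and 54.4 to 61.5% of their TPM was mitochondrial, against 32.5 to 50.1%. In the first week sampled they are replicates 3 and 4 of the cachectic and replicate 5 of the non-cachectic mice, and in the last week replicate 3 of the cachectic mice. The summed TPM of 8 skeletal muscle markers lay between 38200 and 90700 in every library, so the tissue is muscle as labelled. In 7 libraries transcripts of liver genes were high, with 1760 to 23400 TPM over 9 liver markers against 7.66 to 556 TPM in the other 55. At 2 weeks these were replicates 2, 4 and 5 of the control mice and replicate 1 of the cachectic mice, and later control replicate 1 (4 weeks) and cachectic replicates 5 (6 weeks) and 2 (8 weeks). Several of the results that rest on these libraries are given with and without them. In whole muscle, fewer cells of a type and less RNA per cell cannot be told apart.

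In cachectic mice the activating enzyme and several targets were higher than in control mice at 6 and 8 weeks, whereas the receptor transcript was lower at 8 weeks. At 6 weeks 3 of the 10 genes passed the test, Hsd11b1, Fkbp5 and Cebpd, all higher. The test was limma on log2(TPM + 1) with an adjusted p under 0.05, which called 6.79% of all genes in this comparison, 5.62% as higher and 1.17% as lower. At 8 weeks 7 of the 10 passed, against 14.8% of all genes. Hsd11b1, Fkbp5, Cebpd, Ddit4, Sgk1 and Tsc22d3 were higher, where 6.65% of all genes were, and Nr3c1 was lower, where 8.12% were. The median log2 fold change of the 10 genes was 0.88 at 6 weeks and 0.98 at 8 weeks, beside 0.17 and -0.09 over all genes. Since the 10 genes were chosen with earlier results of these data known, setting them beside all genes is no independent test. Without the 4 libraries that list few genes, 6 genes were called at 6 weeks, when 31.2% of all genes were, and 9 at 8 weeks, when 34.6% were. Leaving out cachectic replicate 1 at 6 weeks, the mouse with the highest level of all 8 targets, left Hsd11b1 as the 1 gene called at that week.

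**Figure D1:**
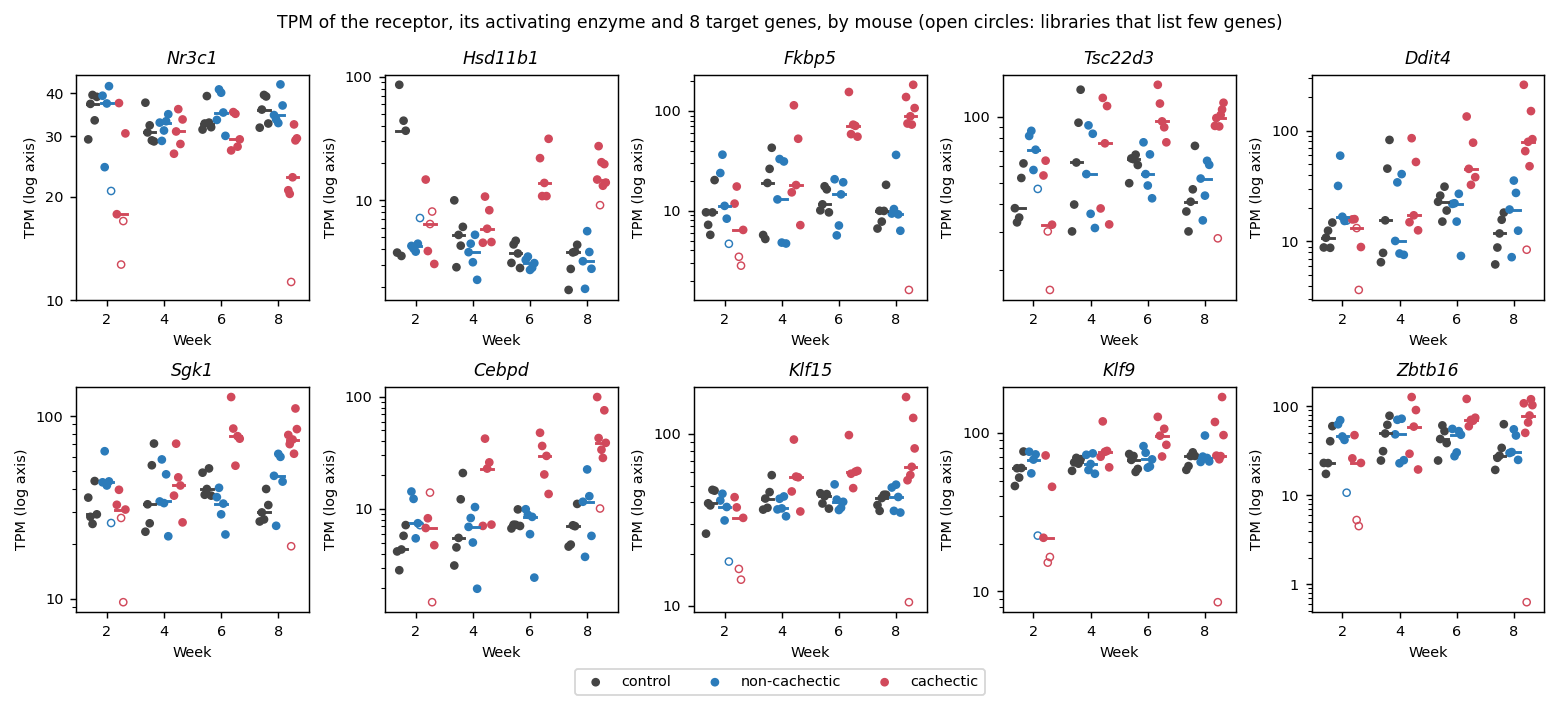
TPM on a log axis in each mouse for the 10 genes, by week, in control (grey), non-cachectic (blue) and cachectic (red) mice. Bars are medians, and open circles mark the 4 libraries that list few genes. At 8 weeks the cachectic mice other than the open circle lie above every control mouse for Hsd11b1, Fkbp5, Tsc22d3, Ddit4, Sgk1, Cebpd and Klf15, as for 9.51% of all genes. With the open circle this holds for Hsd11b1 alone, beside 2.52% of all genes.

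Nr3c1, the receptor gene on chromosome 18 (chr18:39410545-39519421, minus strand, GRCm38), was lower in cachectic mice at 8 weeks and did not pass the test at 4 or 6 weeks. At 6 weeks the 5 control mice had 31.4, 32.7, 39.3, 32.9 and 31.9 TPM and the 5 cachectic mice 27.3, 35.3, 34.9, 28 and 29.4 TPM. These ranges overlap, and the log2 fold change was -0.12 with a 95% interval from -0.50 to 0.26. At 8 weeks the control mice had 31.8, 35.9, 39.6, 39.2 and 32.7 TPM and the non-cachectic mice 34.6, 33.6, 32.8, 42.5 and 36.9 TPM. The 7 cachectic mice had 20.9, 20.4, 11.3, 22.8, 32.5, 29.2 and 29.6 TPM. All 7 lay below every non-cachectic mouse, which was so for 2.42% of all genes (2.86% without the library that lists few genes), 1 of them lay within the control range, and the lowest was the library that lists few genes. The mean fell from 35.8 ± 3.57 (SD, n = 5) TPM in control mice to 23.8 ± 7.25 (SD, n = 7) TPM, and to 25.9 ± 5.17 (SD, n = 6) TPM without that library. On the log2 scale the change was -0.63 (SE 0.18, limma adjusted p = 0.00954) against control mice and -0.64 (adjusted p = 0.00959) against non-cachectic mice, and -0.47 (adjusted p = 0.00356) and -0.48 (adjusted p = 0.00323) without the 4 libraries. The call against control mice held in all 12 fits that left out 1 mouse of the comparison and by Dunn's rank test. It was lost in a fit of only the groups compared. Against non-cachectic mice the call was lost in such a fit and by Dunn's rank test.

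Hsd11b1 (chr1:193221634-193264075, minus strand) encodes 11beta-hydroxysteroid dehydrogenase type 1, which turns the inactive 11-keto steroid into active corticosterone inside the cell. Its transcript was higher in cachectic mice at both late weeks, without overlap. At 6 weeks the control mice had 3.11, 4.39, 4.70, 3.71 and 2.83 TPM, the non-cachectic mice 3.29, 3.50, 2.73, 2.84 and 3.10 TPM and the cachectic mice 21.9, 10.8, 13.8, 10.8 and 31.4 TPM. The lowest cachectic mouse was above the highest mouse of either other group. Cachectic mice were higher by 1.88 on the log2 scale (SE 0.44, adjusted p = 0.00453) against control mice and 2.08 (adjusted p = 0.00173) against non-cachectic mice.

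In week 8 Hsd11b1 was at 1.88, 2.78, 3.78, 3.84 and 4.36 TPM in the control mice and at 3.21, 1.92, 5.62, 3.81 and 2.79 TPM in the non-cachectic mice. The 7 cachectic mice had 14.7, 27.4, 9.12, 20.3, 13.1, 19.6 and 13.9 TPM, and the library that lists few genes was the lowest of them and still above every other mouse of that week. Hsd11b1 was the 1 gene of the 10 for which all 7 cachectic mice lay above all control mice, as 2.52% of all genes did. The difference was 2.01 on the log2 scale (SE 0.41, adjusted p = 0.000304) against control mice and 1.99 (adjusted p = 0.000409) against non-cachectic mice.

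Hsd11b1 is abundant in liver and adipose tissue, and its values moved with the liver transcripts in the first week sampled. At 2 weeks the control replicates 2, 4 and 5, which hold liver transcripts, had 85.9, 44.0 and 36.5 TPM, and control replicates 1 and 3 had 3.77 and 3.54 TPM. In that week the log2 fold change against control mice was -1.45 (adjusted p = 0.0181) in cachectic and -1.82 (adjusted p = 0.00486) in non-cachectic mice, and without the 7 libraries the values were 0.38 (adjusted p = 0.397) and 0.28 (adjusted p = 1.0). The 6 and 8 week differences were also seen without those libraries, at 1.65 (adjusted p = 1.11e-05) and 1.89 (adjusted p = 7.98e-08) against control mice. The cachectic mouse with the highest level at 6 weeks, replicate 5, is 1 of the 7. In order of condition means, control mice at 2 weeks came first, cachectic mice at 6 and 8 weeks next, and the step of 1.19 on the log2 scale from these to cachectic mice at 4 weeks was larger than the larger SD of the pair, 0.49. It was the 1 step in 11 for which this held, and for the other 9 genes no step between neighbors in the order did.

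The receptor induces a cochaperone of its own complex. Fkbp5 (chr17:28399094-28517527, minus strand) encodes FKBP51, an immunophilin that lowers hormone binding of the receptor and is one of its most responsive targets. At 6 weeks the control mice had 10.1, 11.6, 17.6, 16.4 and 9.64 TPM, the non-cachectic mice 20.7, 5.67, 7.12, 14.6 and 19.3 TPM, and the cachectic mice 155.0, 58.6, 72.9, 71.0 and 55.3 TPM. The cachectic mice did not overlap with either group. The mean rose from 13.1 ± 3.69 (SD, n = 5) TPM in control mice to 82.5 ± 41.0 (SD, n = 5) TPM, a difference of 2.50 on the log2 scale (SE 0.71, adjusted p = 0.0209), and it was 2.57 (adjusted p = 0.0180) against non-cachectic mice. The call against control mice was lost without cachectic replicate 1 and without control replicate 5, with adjusted p from 0.0222 to 0.0922 over the 10 fits that left out 1 mouse. Against non-cachectic mice it was lost without cachectic replicate 1 and without non-cachectic replicate 2 or 3.

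In week 8 Fkbp5 was at 6.64, 10, 7.79, 9.97 and 18.2 TPM in the control mice. The cachectic mice had 138.0, 74.9, 1.61, 88.5, 73.1, 183.0 and 107.0 TPM. Thus 6 of 7 were at least 73.1 TPM, above all control and all non-cachectic mice, and the library that lists few genes was below all of them. Against control mice the difference was 2.51 (SE 0.66, adjusted p = 0.00502) with that library and 3.27 (adjusted p = 2.72e-06) without the 4 libraries, the largest change among the 10 genes. In all mice this call was lost by Dunn's rank test. It was also lost in a fit of only the groups compared and with the replicate number as a block.

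Cebpd (chr16:15887286-15891031, plus strand) encodes C/EBPdelta, a transcription factor that responds both to glucocorticoids and to inflammatory cytokines. At 6 weeks the control mice had 6.71, 7.25, 7.23, 9.92 and 7.06 TPM and the cachectic mice 47.7, 36.4, 20.3, 29.7 and 13.6 TPM, without overlap, a log2 fold change of 1.71 (SE 0.48, adjusted p = 0.0199). This call was lost without cachectic replicate 1 and without cachectic replicate 2, with adjusted p from 0.00996 to 0.0965 when 1 mouse was left out. In the last week the control mice had 4.63 to 11.1 TPM and the cachectic mice 10.1 to 99.2 TPM with a median of 38.8 TPM, and the cachectic library that lists few genes was the 1 that lay within the control range. The increase was 2.37 on the log2 scale (SE 0.45, adjusted p = 0.000104), and 1.90 (adjusted p = 0.00195) against non-cachectic mice.

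Ddit4 (chr10:59949669-59951834, minus strand) encodes REDD1, an inhibitor of mTORC1 and so of protein synthesis, and is also induced by hypoxia and DNA damage. In control mice of 8 weeks it was at 6.20, 8.81, 11.8, 15.7 and 18.2 TPM, and in cachectic mice at 259.0, 65.3, 8.42, 79.2, 47.7, 150.0 and 83.7 TPM. Again 6 of 7 lay above all mice of the other groups, of which the non-cachectic mice reached 35.4 TPM. Its log2 fold change was 2.50 (SE 0.56, adjusted p = 0.00102), and 1.90 (adjusted p = 0.0161) against non-cachectic mice, a call lost without cachectic replicate 1 and without non-cachectic replicate 2. At 6 weeks the cachectic mice, at 32.4 to 134.0 TPM, did not overlap with the control mice, at 15.1 to 31.2 TPM, but the log2 fold change of 1.32 did not pass the test (adjusted p = 0.199). The test uses 1 spread per gene for all 12 conditions.

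Sgk1 (chr10:21882184-21999903, plus strand) encodes a kinase related to AKT that acts on ion transport and FOXO factors, and is a classical target of both corticosteroid receptors. At 6 weeks it was at 36.7 to 51.7 TPM in control, 22.5 to 40.5 TPM in non-cachectic and 53.5 to 127.0 TPM in cachectic mice. The cachectic mice lay above all others. It passed the test against non-cachectic mice, at 1.32 (adjusted p = 0.00759; lost without cachectic replicate 1), but not against control mice, at 0.91 (adjusted p = 0.0798). At 8 weeks it was called against control mice, at 1.04 (SE 0.30, adjusted p = 0.0120), and not against non-cachectic mice, at 0.50 (adjusted p = 0.313), and without the 4 libraries both passed, at 1.33 (adjusted p = 2.18e-05) and 0.78 (adjusted p = 0.00972). In all mice the 8 week call against control mice was lost in the same 3 settings as that of Fkbp5.

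Tsc22d3 (chrX:140539528-140600659, minus strand) encodes GILZ, the glucocorticoid-induced leucine zipper that mediates part of the anti-inflammatory action of the hormone. Control mice of 8 weeks had 37.1, 30.1, 41.1, 46.8 and 73.8 TPM, and the cachectic mice 91.0, 98.8, 28, 90.5, 102.0, 108.0 and 116.0 TPM. The 6 higher cachectic mice lay close together and above every control mouse. Its log2 fold change was 0.93 (SE 0.33, adjusted p = 0.0470), a call close to the threshold that held in 2 of the 12 fits that left out 1 mouse. The call was also lost without the 7 libraries with liver transcripts, which include cachectic replicate 2 of that week. The log2 fold change was 1.18 (adjusted p = 0.00144) without the 4 libraries that list few genes. Against non-cachectic mice it was 0.75 (adjusted p = 0.132).

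Klf15, Klf9 and Zbtb16 did not pass the test against control mice at 6 or 8 weeks in all mice. Klf15 (chr6:90462576-90475238, plus strand) encodes a factor that drives branched-chain amino acid breakdown, Klf9 (chr19:23141226-23168134, plus strand) a related factor, and Zbtb16 (chr9:48654297-48836222, minus strand) the zinc finger protein PLZF. At 6 weeks their log2 fold changes were 0.59, 0.53 and 0.85. Without the 4 libraries, which are of other weeks, Klf15 (adjusted p = 0.0250) and Klf9 (adjusted p = 0.0373) were called at 6 weeks and Zbtb16 was not (adjusted p = 0.0833). With array weights the first 2 were called, and in a fit of only the groups compared all 3 were. At 8 weeks Klf15 was at 35.7 to 44.3 TPM in control mice, and in cachectic mice 10.5 TPM in the library that lists few genes and 53.8 to 164.0 TPM in the other 6, above every control mouse. Its log2 fold change was 0.60 (95% interval -0.03 to 1.23, adjusted p = 0.214), and 1.01 (adjusted p = 7.29e-05) without the 4 libraries.

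Zbtb16 at 8 weeks was at 19.3 to 62.9 TPM in control mice, at 0.63 TPM in that library and at 50.3 to 120.0 TPM in the other 6 cachectic mice. Its log2 fold change was 0.57 (95% interval -0.65 to 1.79, adjusted p = 0.594), and 1.39 (adjusted p = 0.00249) without the 4 libraries. At 8 weeks Klf9 had the smallest difference of the 10 genes in all mice. It was at 58.4 to 75.3 TPM in control mice and, without that library, at 68.1 to 168.0 TPM in cachectic mice, with a log2 fold change of -0.01 in all mice (95% interval -0.70 to 0.69), 0.47 (adjusted p = 0.0518) without the 4 libraries and 0.14 with median-ratio scaling, so its direction turned with the setting.

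**Figure D2:**
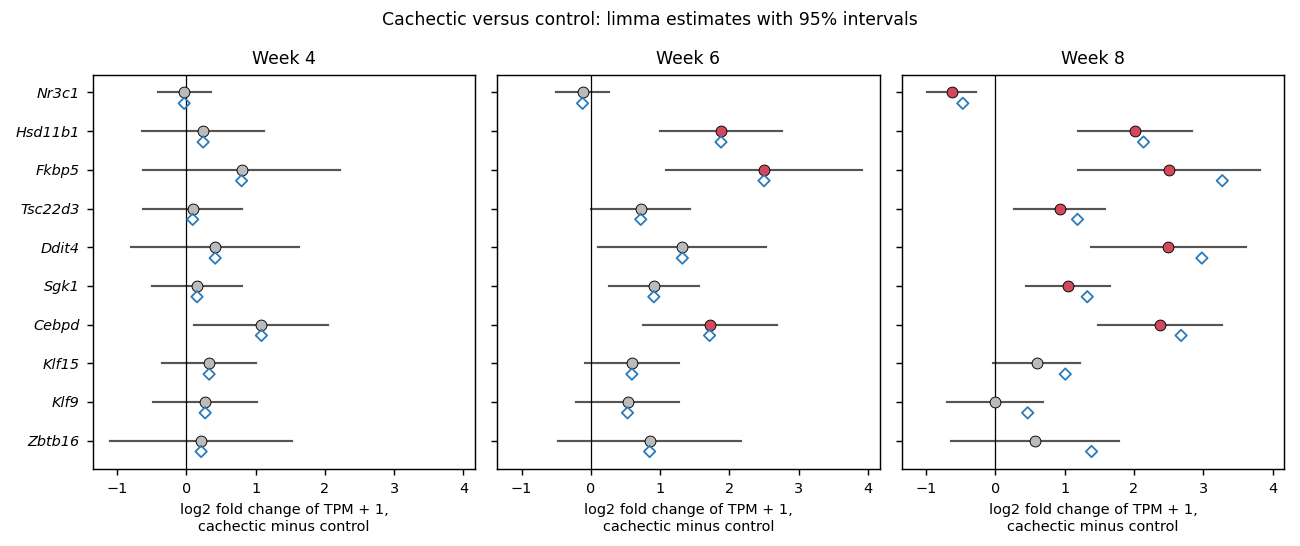
Limma log2 fold changes of TPM + 1, cachectic minus control mice, for the 10 genes at 4, 6 and 8 weeks. Circles are all mice with 95% intervals, red where the adjusted p was under 0.05, and open diamonds are the estimates without the 4 libraries that list few genes. At 8 weeks the diamonds of all 8 targets lie to the right of their circles, from 0.47 for Klf9 to 3.27 for Fkbp5.

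At 6 weeks, as a description with no test, the groups did not overlap for most of the genes. For 7 of the 10 genes (Hsd11b1, Fkbp5, Tsc22d3, Ddit4, Klf15, Sgk1 and Cebpd) every cachectic mouse was above every control mouse, as were 15.9% of all genes, and for 7 every cachectic mouse was above every non-cachectic mouse, as were 13.6% of all genes. At 8 weeks, without the library that lists few genes, the same 7 genes were above every control mouse in all 6 other cachectic mice, as were 9.51% of all genes. With all 7 mice this held for 1 gene, beside 2.52% of all genes. Against non-cachectic mice at 8 weeks 1 gene, Hsd11b1, was above every mouse with all 7 cachectic mice, beside 2.45% of all genes, and 7 genes were without that library, beside 9.57%. Nr3c1 was below every non-cachectic mouse either way.

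The sequence before the transcription start was read for the genes that RefSeq windows (GRCm38.p6) cover, 14 windows of 7 of the 10 genes. The 250 bases before each start were searched on both strands for the full glucocorticoid response element, the hexamer AGAACA followed by any 3 bases and TGTTCT, which reads the same on both strands, and for either hexamer alone, a match that each full element also holds. The full element was in 3 of 32851 windows (0.00913%), and 1 of the 3 was a window of Sgk1 at chr10:21993640-21993889, plus strand, where it begins 189 bases before the start. A hexamer was in 16.1% of all windows and in 4 of the 14, 3 of Sgk1 and 1 of Tsc22d3 at chrX:140600523-140600772, minus strand. Fkbp5 had neither in its window at chr17:28486150-28486399, minus strand. These are matches of letters and not sites shown to be bound. The windows of the gene with the full element, of the gene with a hexamer, and of the most changed target are printed with the matched bases in capitals.
Sgk1: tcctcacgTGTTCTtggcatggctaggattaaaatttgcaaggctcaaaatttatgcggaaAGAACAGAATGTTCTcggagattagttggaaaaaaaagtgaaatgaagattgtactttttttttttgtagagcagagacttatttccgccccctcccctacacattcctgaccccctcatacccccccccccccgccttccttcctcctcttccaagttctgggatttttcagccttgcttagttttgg
Tsc22d3: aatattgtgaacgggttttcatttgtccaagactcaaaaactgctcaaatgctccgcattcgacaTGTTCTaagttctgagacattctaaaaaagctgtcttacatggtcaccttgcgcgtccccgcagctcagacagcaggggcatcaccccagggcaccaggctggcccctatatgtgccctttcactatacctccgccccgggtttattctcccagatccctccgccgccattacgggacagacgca
Fkbp5: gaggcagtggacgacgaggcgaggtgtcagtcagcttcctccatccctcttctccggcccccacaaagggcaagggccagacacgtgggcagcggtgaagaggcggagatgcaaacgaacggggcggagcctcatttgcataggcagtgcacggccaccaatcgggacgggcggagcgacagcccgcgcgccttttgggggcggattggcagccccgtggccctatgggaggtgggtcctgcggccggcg

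At 4 weeks none of the 10 genes passed the test between cachectic and control mice, where limma called 0.0221% of all genes, 0.0147% as higher and 0.00736% as lower. Cebpd alone had an unadjusted p under 0.05, with a log2 fold change of 1.08 (adjusted p = 0.811), and Dunn's rank test called 0 of 10. Several targets ranged widely among the mice of each group in this week, as some did in other weeks, whereas Klf9 and Klf15 had highest to lowest ratios of 1.21 to 2.62. Fkbp5 was at 5.72, 5.22, 19.0, 26.3 and 42.8 TPM in control mice, at 13.0, 33.0, 4.80, 31.2 and 4.70 TPM in non-cachectic mice and at 15.3, 114.0, 18.1, 52.7 and 7.18 TPM in cachectic mice. The highest mouse of a group exceeded the lowest by 8.19, 7.02 and 15.9 times.

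The high mice of that week were the same for most targets. Cachectic replicate 2 had the highest level of its group for 8 of the 8 targets and replicate 5 the lowest for 7. Control replicate 5 was the highest for 7 and control replicate 1, which holds liver transcripts, the lowest for 7. Of the non-cachectic mice, replicates 4 and 2 were the highest for 5 and 3 targets and replicate 5 the lowest for 7. Ddit4 in control mice ran from 6.49 TPM in replicate 1 to 82.4 TPM in replicate 5, whereas Nr3c1 in the same group ran from 29.0 to 37.6 TPM. The targets of a mouse come from the same library, and the part of the library in these ranges was not tested. The time of day at which each mouse was sampled is not given in the sources used here.

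**Figure D3:**
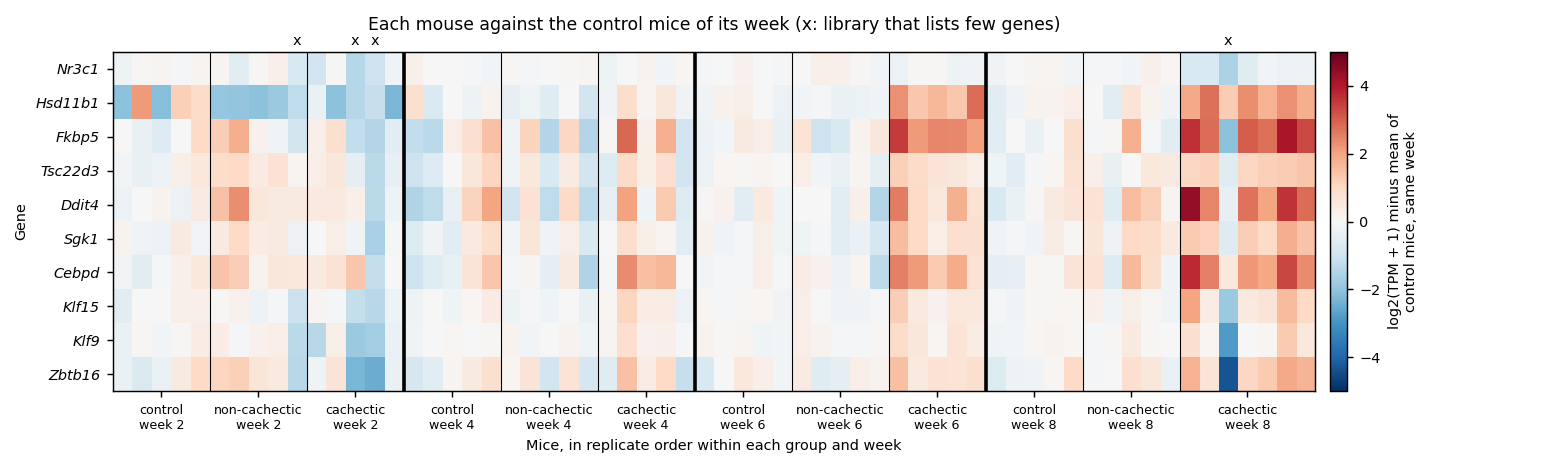
Each column is a mouse and each row a gene, and color gives log2(TPM + 1) minus the mean of the control mice of the same week, from -5 (blue) to 5 (red). Thin lines part groups, thick lines part weeks, and an x marks a library that lists few genes. Most targets are red in the cachectic mice of 6 and 8 weeks, apart from the library marked x at 8 weeks, and vary between mice in all 3 groups at 4 weeks.

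At 2 weeks the comparison of cachectic with control mice called 3 of the 10 genes, all lower, where 29.3% of all genes were called, 27.8% as lower and 1.41% as higher. They were Hsd11b1, Klf9, with a log2 fold change of -1.01 (adjusted p = 0.0396), and Nr3c1, with -0.71 (adjusted p = 0.0111). Without the 4 libraries that list few genes, 2 of which are cachectic mice of this week, none was called. The values were then -1.56 for Hsd11b1, -0.47 for Klf9 and -0.36 for Nr3c1. Between cachectic and non-cachectic mice of 2 weeks 0 of 10 were called by limma and by Dunn's test, with 5 at an unadjusted p under 0.05, and limma called 0.0% of all genes.

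In mice with the non-cachectic melanoma 1 of the 10 genes was called. Between non-cachectic and control mice Hsd11b1 was called at 2 weeks, where 4.43% of all genes were (4.42% lower, 0.0147% higher), with the liver transcripts described above. Ddit4 did not overlap in that week, at 15.3 to 59.4 TPM in non-cachectic and 8.76 to 14.8 TPM in control mice. Of all genes 0.118% were higher without overlap, and by limma Ddit4 did not pass, at 1.05 (adjusted p = 0.504). At 4, 6 and 8 weeks limma called 0 of 10 and 0.0% of all genes, no gene had an unadjusted p under 0.05, and Dunn's test called 0. Against these mice the cachectic mice differed in 4 genes at 6 weeks (Hsd11b1, Fkbp5, Cebpd and Sgk1, all higher) and 5 at 8 weeks (Hsd11b1, Fkbp5, Cebpd and Ddit4 higher, Nr3c1 lower), where 5.85% (4.28% higher, 1.57% lower) and 12.9% (6.75% higher, 6.19% lower) of all genes were called. These comparisons and those with control mice share the cachectic mice. At 4 weeks limma called 0 of 10 and 0.0295% of all genes, all higher, with Cebpd at an unadjusted p under 0.05, and Dunn's test called 0.

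Within cachectic mice the F test over 2, 4, 6 and 8 weeks passed for all 10 genes and for 52.7% of all genes, with adjusted p from 0.000306 for Cebpd to 0.0230 for Nr3c1, and 2 of the 5 libraries at 2 weeks list few genes. Over 4, 6 and 8 weeks it passed for none of the 10 and for 1.05% of all genes, with the lowest adjusted p at 0.186 for Hsd11b1. Within control and within non-cachectic mice it passed for none, apart from Hsd11b1 in control mice over the 4 weeks (adjusted p = 0.00294), a test that 3.03% of all genes passed and that takes in the libraries with liver transcripts. The change of the cachectic versus control difference between weeks did not pass for any of the 10 genes. From 4 to 8 weeks the difference in Ddit4 rose by 2.08 on the log2 scale (95% interval 0.43 to 3.73, adjusted p = 0.547) and that in Hsd11b1 by 1.77 (0.56 to 2.97, adjusted p = 0.454). By limma 0 genes passed, with 1 of the 10 at an unadjusted p under 0.05 from 4 to 6 weeks, 3 from 4 to 8 weeks and 0 from 6 to 8 weeks.

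Other genes known to be induced by glucocorticoids in muscle or widely, a list of 26, were in part higher. Because this list was chosen with earlier results of these data known, its counts and medians beside all genes are no independent test. At 6 weeks 6 of 26 were higher and 0 lower in cachectic than in control mice, and at 8 weeks 8 were higher and 1 lower. Of all genes 5.62% were higher and 1.17% lower at 6 weeks, and 6.65% and 8.12% at 8 weeks. The median log2 fold change of the list was 0.60 and 0.61, beside 0.17 and -0.09 over all genes. Without the 4 libraries 9 were higher and 0 lower at 6 weeks, where 26.9% of all genes were higher and 4.29% lower, and 16 higher and 1 lower at 8 weeks, where 22.2% were higher and 12.4% lower. The largest changes were in Mt2, Lcn2 and Mt1, which cytokines also induce, and the part of cytokines or of the hormone in them was not tested. Mt2, a metal-binding metallothionein, was at 11.9 ± 2.42 (SD, n = 5) TPM in control and 511.0 ± 375.0 (SD, n = 5) TPM in cachectic mice at 6 weeks, a log2 fold change of 5.11 (adjusted p = 1.72e-06), and it was 5.21 (adjusted p = 9.17e-08) at 8 weeks. Mt1 rose by 3.34 and Lcn2, an iron-siderophore binding protein of the acute phase, by 3.52 at 8 weeks.

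Among the other genes of the list, Errfi1, an inhibitor of EGF receptor signaling, rose by 1.42 at 6 weeks (adjusted p = 0.0300) and 1.51 at 8 weeks (adjusted p = 0.00511). Eif4ebp1, which holds back cap-dependent translation, rose by 1.76, Glul, the glutamine synthetase, by 1.84, and Sesn1, an inhibitor of mTORC1, by 0.92 (all at 8 weeks). Nfkbia, which encodes the NF-kB inhibitor, rose by 0.80. Pdk4, a kinase that limits pyruvate oxidation, was the 1 gene that was lower, by 1.24 on the log2 scale at 8 weeks (adjusted p = 0.0465), and its value at 6 weeks was 0.19.

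The muscle ubiquitin ligases and the FOXO factors that drive them did not pass the test with all mice. Trim63, which encodes MuRF1, was higher by 1.29 at 6 weeks on the log2 scale (adjusted p = 0.0665) and 0.94 at 8 weeks (adjusted p = 0.124), and without the 4 libraries 1.42 at 8 weeks (adjusted p = 0.00103). Fbxo32, which encodes atrogin-1, had 0.59 and 0.10, and 0.61 without those libraries at 8 weeks (adjusted p = 0.0981). Foxo1 had 0.46 and Foxo3 0.51 at 8 weeks, and both passed without the 4 libraries, at 0.88 (adjusted p = 0.00140) and 0.96 (adjusted p = 2.09e-05). At 8 weeks Trim63 varied widely among cachectic mice, with 398.0 ± 454.0 (SD, n = 7) TPM against 121.0 ± 28.1 (SD, n = 5) TPM in control mice.

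**Figure D4:**
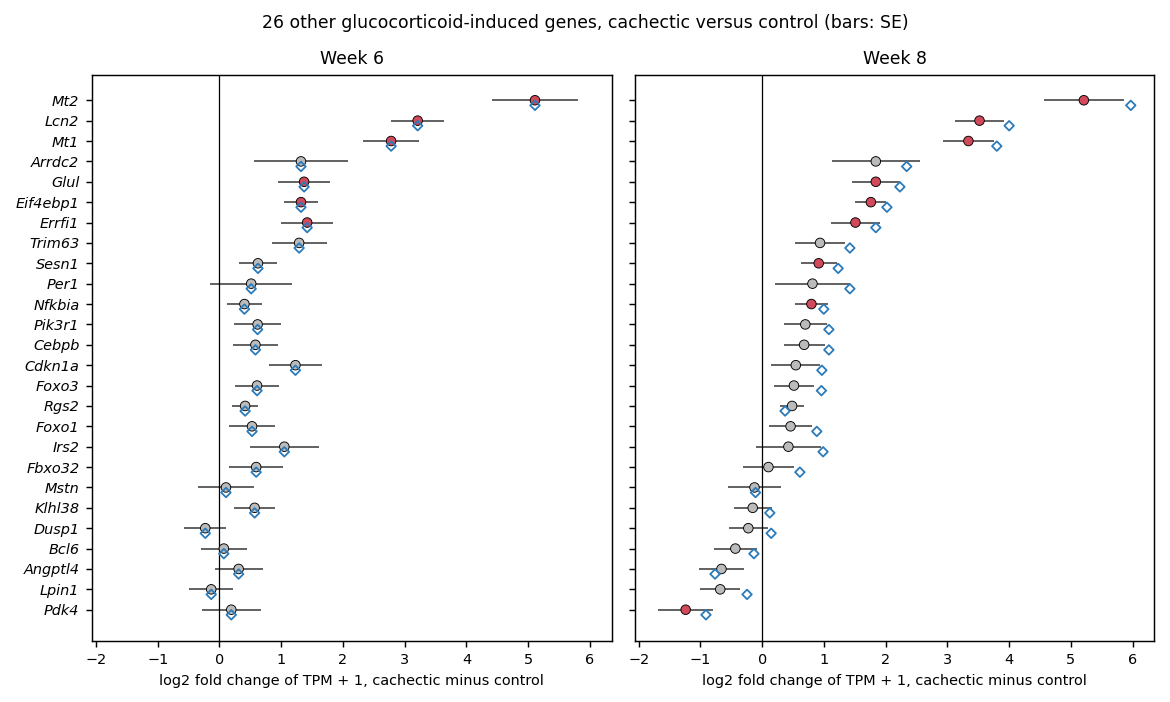
Log2 fold changes of TPM + 1, cachectic minus control mice, for 26 other glucocorticoid-induced genes at 6 and 8 weeks. Circles are limma estimates in all mice with their SE, red where the adjusted p was under 0.05, and open diamonds the estimates without the 4 libraries. Mt2, Lcn2 and Mt1 stand furthest to the right at both weeks, and Pdk4 is furthest to the left at 8 weeks.

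Of 17 chaperones and cofactors of the receptor 16 were tested, and 0 were called at 6 weeks by limma in all mice, where 6.79% of all genes were. At 8 weeks, where 14.8% of all genes were called, 1 was, Stip1, the adaptor that passes clients from HSP70 to HSP90, which was lower by 0.69 on the log2 scale (adjusted p = 0.0371). Without the 4 libraries 4 of the 16 were higher and 1 lower at 6 weeks, and 3 higher and 3 lower at 8 weeks, where 31.2% and 34.6% of all genes were called. Of 8 genes of amino acid breakdown Prodh, the proline dehydrogenase, was higher at both weeks, by 1.30 (adjusted p = 0.0303) and 1.31 (adjusted p = 0.00819), and without the 4 libraries 3 were higher at 6 weeks, and 3 higher and 1 lower at 8 weeks. In the list of 16 clock genes 0 were called at 6 weeks and 2 were lower at 8 weeks, Bhlhe41, named here after its value was seen, at -1.01 (adjusted p = 0.00364), and Nr1d1, the repressor REV-ERBalpha, at -2.29 (adjusted p = 0.00503). Without the 4 libraries 2 clock genes were lower at 6 weeks, and 2 were higher and 2 lower at 8 weeks. Of all genes 26.9% were then higher and 4.29% lower at 6 weeks, and 22.2% and 12.4% at 8 weeks. In all mice 5.62% were higher and 1.17% lower at 6 weeks, and 6.65% and 8.12% at 8 weeks. Per1, a clock gene that glucocorticoids induce directly, had a log2 fold change of 0.81 (adjusted p = 0.427), and 1.42 (adjusted p = 0.0159) without the 4 libraries. Per2 had 0.92 (adjusted p = 0.379), Dbp -1.04 (adjusted p = 0.148) and Arntl -0.92 (adjusted p = 0.415).

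Some markers of other cells also differed between cachectic and control mice, in both directions. Of all genes 5.62% were higher and 1.17% lower at 6 weeks, and 6.65% and 8.12% at 8 weeks. Of 6 macrophage markers 2 were higher at 6 weeks and 3 at 8 weeks in cachectic mice, and their summed level was 90.6 to 145.0 TPM in control and 136.0 to 248.0 TPM in cachectic mice at 6 weeks, and 100 to 155.0 and 124.0 to 359.0 TPM at 8 weeks. Of 6 neutrophil markers 4 were tested, and 2 of these were higher at 8 weeks. Their sums were 4.0 to 12.8 TPM in control and 16.4 to 31.1 TPM in cachectic mice at 6 weeks, and 4.25 to 15 and 9.12 to 73.7 TPM at 8 weeks. Without the 4 libraries that list few genes, 4 macrophage and 2 neutrophil markers were higher at 6 weeks, where 26.9% of all genes were. At 8 weeks 3 and 4 then were, where 22.2% of all genes were, and 0 of either list were lower. Of 6 adipocyte markers Fabp4 was higher at 8 weeks, with sums of 650.0 to 1380.0 in control and 882.0 to 4290.0 TPM in cachectic mice, and to 1610.0 TPM without the library that lists few genes. Of 5 fibroblast markers Dcn was higher at both weeks, and Col1a1, Col3a1 and Lum were lower at 8 weeks. Of 4 endothelial markers Kdr was lower at 8 weeks. None of the 9 liver, 4 mesothelial and 5 red blood cell markers was called against control mice at 6 or 8 weeks. No marker of these lists was at 0 in all control or all cachectic mice of either week. The part of these cells in the values of the 10 genes was not tested.

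Several targets resembled each other over the 12 condition means of log2(TPM + 1), which share the same libraries. The means take in the 4 libraries that list few genes and the 7 with liver transcripts. Correlations without these libraries were not computed, so their part in the likeness was not tested. Pearson's r with Fkbp5 was 0.954 for Ddit4, 0.946 for Cebpd, 0.922 for Sgk1 and 0.908 for Tsc22d3, and 0.613 for Klf9. It was 0.594 for Hsd11b1 and -0.276 for Nr3c1. Of all genes tested the most similar to Fkbp5 were Enc1 (r = 0.995), Map3k6 (0.992) and AI607873 (0.991). Those most similar to Ddit4 were Fam107a (0.980), Gm27252 (0.979) and Mchr1 (0.975), to Cebpd Gm11730 (0.982), Slc10a6 (0.981) and Syf2 (0.981), to Sgk1 Tmem221 (0.970), D830032E09Rik (0.957) and Folh1 (0.952), and to Tsc22d3 Arrdc2 (0.971), Gm27252 (0.969) and Mid1ip1 (0.962). Hsd11b1 was most like Cd302 (0.987), Itih4 (0.983) and Serpina3m (0.980), the last 2 of which are genes of the liver. Nr3c1 was most like Tnfaip3 (0.983), Vav2 (0.981) and Ostm1 (0.981).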

How the data were processed

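RNA from the diaphragms was extracted by the authors with Trizol and made into libraries with a TruSeq kit, which the labels give as the stranded mRNA kit and the methods as the RNA v2 kit. Reads from a NovaSeq instrument were trimmed, filtered and aligned to GRCm38 (mm10) with CLC Genomics Workbench. The deposited values are TPM. The annotation release and how strand and multiply matching reads were handled are not given in the sources used here, so overlapping and near-identical genes are uncertain. TPM keeps no depth, and no counting error is given. The labels call the replicates biological.

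The members and gene lists were chosen with earlier results of these data known. Their counts beside those of all genes are therefore descriptions and not independent tests. Values were taken as log2(TPM + 1), on which the change of low genes is understated, and a gene was tested if at least 5 mice had at least 1 TPM (13578 of 47643). limma 3.58.1 in R 4.3.3, with a trended prior, was fitted to 12 condition means over 62 mice. Adjustment was by Benjamini-Hochberg over all tested genes per contrast, and calls needed an adjusted p under 0.05. The fit was tested on simulated data. All 10 members were named, and of the 26 other induced genes 8 set by name and the up to 6 others with the largest called change at 8 weeks. Of the chaperone and amino acid lists those called were named, of the clock list 5 set genes, and for each called member the 3 genes most alike over condition means.

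Gene positions are those of GENCODE for GRCm38, found by symbol, and promoter windows those of RefSeq for GRCm38.p6. Alternatives were a pseudocount of 0.1, no filter, median-ratio or quantile scaling, TPM over nuclear genes, array weights, a replicate block, Dunn's test, fitting only the groups compared, and leaving out single or named libraries. The study's own test results were not used. Tables and plots were made with pandas 2.3.3 and matplotlib 3.10.9 in Python 3.11.15.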

Additional observations from a re-analysis of the deposited data

Results flagged for a closer look

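A value far from the others of its condition was looked for in 120 combinations of gene and condition, and 15 were found. Chance gives about 1 in 20 for independent values. The genes of a mouse share 1 library, so the 15 are not independent and cannot be set against that rate. Of the 15 values 6 belong to cachectic replicate 3 at 8 weeks, the library that lists few genes. Its Fkbp5 was 1.61 TPM, where the other 6 mice had 73.1 to 183.0. Its Tsc22d3 was 28 TPM (others 90.5 to 116.0), its Klf15 10.5 TPM (53.8 to 164.0), its Klf9 8.56 TPM (68.1 to 168.0), its Sgk1 19.4 TPM (62.2 to 110.0) and its Zbtb16 0.63 TPM (50.3 to 120.0).

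Non-cachectic replicate 5 at 2 weeks, another such library, was apart in Hsd11b1 at 7.18 TPM (others 3.84 to 4.45), Klf9 at 22.5 TPM (55.5 to 76.0) and Zbtb16 at 10.7 TPM (41.9 to 69.8). Cachectic replicate 4 at 2 weeks had 9.59 TPM of Sgk1 (27.7 to 39.5). The other 5 are in libraries of usual gene number. Cachectic replicate 1 at 6 weeks had 155.0 TPM of Fkbp5 (55.3 to 72.9). Non-cachectic replicate 3 at 8 weeks had 36.3 TPM of Fkbp5 (6.31 to 10.4) and 96.1 TPM of Klf9 (65.5 to 70.8), and was the highest of its group for 7 of the 8 targets. Control mice at 6 weeks had 39.3 TPM of Nr3c1 in replicate 3 (31.4 to 32.9) and 9.92 TPM of Cebpd in replicate 4 (6.71 to 7.25).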

How the results depend on the processing

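The number of the 10 genes called at 8 weeks against control mice, 7 in all mice, was 6 to 9 when 1 mouse was left out, 9 without cachectic replicate 3, 4 by Dunn's test and 3 in a fit of the groups compared only. It was 6 without the liver libraries, where Tsc22d3 was lost. At 6 weeks it was 3, with 1 to 3 when 1 mouse was left out (1 without cachectic replicate 1), 8 with array weights, 0 by Dunn's test, 9 in the groups compared only and 6 without the libraries that list few genes. Against non-cachectic mice at 6 weeks, 4 in all mice, it was 1 to 4 (1 without cachectic replicate 1), 9, 0, 9 and 7, and at 8 weeks, 5 in all mice, 4 to 8 (8 without cachectic replicate 3), 9 with weights, 1 by Dunn's test, 1 in the groups compared and 9 without those libraries. At 2 weeks the 3 calls against control mice were 1 with weights and 0 with median-ratio or quantile scaling, by Dunn's test, in the groups compared, and without either set of libraries, and 0 to 3 when 1 mouse was left out (0 without cachectic replicate 3 or 4 or control replicate 2, and 1 without control replicate 4 or 5). The 1 call between non-cachectic and control mice at 2 weeks was 0 by Dunn's test, in the groups compared and without the liver libraries, and 0 to 1 when 1 mouse was left out, and against non-cachectic mice at 2 weeks it was 0 to 2. With array weights 1 gene was called against non-cachectic mice at 4 weeks, 2 in the change from 4 to 6 weeks and 6 in that from 4 to 8 weeks. The weights of the 4 libraries were 0.015 to 0.0445. At 8 weeks Dunn's test kept Cebpd, Ddit4, Hsd11b1 and Nr3c1 against control mice. The fit of the groups compared kept Cebpd, Ddit4 and Hsd11b1. Against non-cachectic mice both kept only Hsd11b1. The cause of these shifts was not tested. Without the libraries that list few genes, limma called 31.2% of all genes against control and 27.2% against non-cachectic mice at 6 weeks. At 8 weeks it called 34.6% and 33.3%. The shares of all genes called under the other settings are not given here. Counts under those settings can therefore not be read as particular to the 10 genes.

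Of the 26 other induced genes 6 were called at 6 weeks, with 15 by weights, 0 by Dunn's test, 11 in the groups compared and 4 to 6 when 1 mouse was left out. At 8 weeks 9 were called, with 14 by median-ratio and by quantile scaling, 17 with weights and without the libraries that list few genes, 4 by Dunn's test and in the groups compared, and 6 to 15 when 1 mouse was left out (15 without cachectic replicate 3). At 8 weeks limma called 34.6% of all genes without those libraries. The shares of all genes under the other settings are not given here, so these counts cannot be read as particular to the 26. Without those libraries, a setting chosen after seeing the data, 7 of the 10 genes lay above every control mouse at 8 weeks. Also 7 lay above every non-cachectic mouse. Of all genes 9.51% and 9.57% did.

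Of the called values 2 changed sign, Hsd11b1 at 2 weeks without the liver libraries, to 0.38 in cachectic and 0.28 in non-cachectic mice. The other signs that turned were of values that did not pass the test. At 4 weeks they were, with weights, 0.045 for Nr3c1, -0.058 for Tsc22d3 and -0.0088 for Zbtb16, and without the liver libraries 0.031 for Nr3c1, -0.16 for Tsc22d3 and -0.014 for Sgk1. When 1 mouse was left out they ran from -0.083 to 0.031 for Nr3c1, from -0.16 to 0.36 for Tsc22d3, from -0.029 to 0.38 for Sgk1 and from -0.10 to 0.56 for Zbtb16. Klf9 at 8 weeks was 0.14 with median-ratio scaling, 0.036 with quantile scaling, 0.30 with weights, 0.47 without the libraries that list few genes and a rank difference of 8.80 by Dunn's test, and ran from -0.23 to 0.47 when 1 mouse was left out. Against non-cachectic mice it was 0.0013, 0.29 (weights), 0.36 and a rank difference of 6.20, and ran from -0.34 to 0.36. Its change from 4 to 8 weeks was 0.12 with weights and 0.19 without those libraries, and ran from -0.50 to 0.19. Median-ratio scaling moved the median of all genes at 6 weeks from 0.17 to 0.01 and at 8 weeks from -0.09 to 0.01.

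With the replicate number as a block 4 genes were called against control and 3 against non-cachectic mice at 8 weeks, and 3 and 4 at 6 weeks, and the signs of Zbtb16 against non-cachectic mice at 8 weeks (-0.10) and of the changes from 4 to 8 weeks in Zbtb16 (-0.13) and Klf15 (-0.0078) turned. The deviations of same-numbered mice had correlations from -0.63 to 0.39. Above 0.1 were 7 of 20 pairs of cachectic with control mice and 7 of 20 of cachectic with non-cachectic mice. For non-cachectic with control mice 4 of 20 were. The labels do not say that the numbers pair mice, so the main fit has no block. Depth in reads is unknown. Groups of 5 mice limit what can be called, at 4 weeks as at 6 weeks. At 4 weeks the 95% interval of Fkbp5, cachectic versus control mice, ran from -0.62 to 2.22.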
